A study of Mus musculus with 6 samples.

Results

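The p53 and p63 checkpoint genes described here are 10 of the 24421 genes in a table of RNA-seq read counts from mouse germinal vesicle (GV) oocytes. They were chosen by symbol: the transcription factors Trp53 and Trp63, the p53 regulators Mdm2 and Mdm4, and the target genes Ccng1, Sesn2, Gadd45a, Gadd45b, Zmat3 and Perp. GV oocytes are fully grown oocytes held in meiotic prophase before maturation. Both genotypes were null for Ring1 and carried floxed Rnf2 alleles on a mixed FVB, 129/Sv and C57BL/6J background. Mice of the DKO genotype (Ring1 -/-; Rnf2 f/f; Zp3-cre) also had a Cre transgene under the promoter of Zp3, a zona pellucida gene switched on in growing oocytes, and SKO mice (Ring1 -/-; Rnf2 f/f) did not. Ring1 and Rnf2 are the catalytic E3 ligases of Polycomb repressive complex 1, so the comparison of DKO with SKO addresses loss of Rnf2 during oocyte growth where Ring1 is absent in both arms. Wild-type oocytes are not in the comparison. Because only DKO mice carried Cre, what Cre does and what loss of Rnf2 does cannot be told apart. Each of the 3 libraries per genotype was made from 15 oocytes of 1 female of about 3 months, freed of granulosa cells by pipetting.

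The protein p53, encoded by Trp53, switches on genes for cell cycle arrest, DNA repair and cell death after DNA damage. Its level is held down by Mdm2, a ubiquitin ligase that marks p53 for breakdown, and its activity by the Mdm2 partner Mdm4. In oocytes the relative p63, encoded by Trp63, is the better known guardian: its full-length form is stored in an inactive state in resting oocytes, and phosphorylation through Chek2 and casein kinase 1 after DNA damage activates it and leads to oocyte death. Both proteins are controlled largely after translation, and the counts measure RNA only.

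Total counts were 15521975 to 26652745 per library. Levels are given as CPM, the count scaled by library size. In log2 CPM, Pearson r over genes ran from 0.942 to 0.977 within a genotype and from 0.865 to 0.898 across genotypes; genes are no independent replicates. Rnf2 checked the labels: SKO libraries held 190 ± 11.8 CPM and DKO libraries 36.6 ± 17.5 CPM (SD, n = 3; log2 fold change -2.38, edgeR adjusted p = 0.000349). Oocyte markers were abundant in every library, led by Gdf9, Bmp15 and Zp3, with a summed level of 12 markers of 11175 to 14177 CPM in DKO and 17945 to 19010 CPM in SKO, and with 1 called higher and 6 lower. The summed level of 14 granulosa and cumulus markers was 270 to 296 CPM in DKO and 113 to 140 CPM in SKO, with 5 called higher and 1 lower. Nr5a2, Ptgs2 and Fshr led that sum, at 117, 87.1 and 30.7 CPM in DKO and 79.2, 3.80 and 0.506 CPM in SKO. The granulosa-defining genes Amh and Foxl2 were at or below 2.46 and 1.83 CPM in every library. Of 12 theca, stroma and endothelium markers, with sums of 114 to 127 CPM in DKO and 117 to 158 CPM in SKO, Pecam1, Tek and Kdr led, and 4 of 8 tested were called higher and 1 lower. Pecam1, the largest member of that sum, fell from 110 to 61.0 CPM, while Kdr rose 3.14-fold, Pdgfra 6.46-fold, Dcn 6.55-fold and Col1a1 17.8-fold, all 4 to at most 11.6 CPM in DKO. Among blood markers, the macrophage gene Cd68 was at 2.47 CPM in DKO and 2.02 CPM in SKO, the myeloid integrin gene Itgam at 0.494 and 1.422 CPM, and the hemoglobin genes Hba-a1 and Hbb-bs at 0 in every library. Below the filter, Lyz2 held 79 counts over the DKO libraries, 78 of them in DKO replicate 3, and 1 over the SKO libraries. Cd3e held 23 and 2 counts, Csf1r 21 and 12, Ptprc 11 and 0, and Adgre1 1 and 0. The sum of 9 ovarian surface epithelium markers, 463 to 631 CPM in DKO and 560 to 724 CPM in SKO, was nearly all Cdh1, and Krt19 was at 0. After Cdh1 came Epcam and Krt8 in DKO, and Upk3b and Epcam in SKO. Of 4 tested, 2 were called higher and 1 lower: Epcam was at 0.758 CPM in SKO and 19.0 CPM in DKO, Krt8 at 0.0882 and 5.10 CPM, and Upk3b at 5.24 and 0.639 CPM (edgeR adjusted p = 3.28e-05, 0.000712 and 0.00286). Krt8, like Dcn and Col1a1, entered the test only through its DKO level. The part of these markers in the results below was not tested.

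The 10 genes divided by the roles assigned above, where Mdm2, which p53 also switches on, counts as a regulator. All 6 target genes were higher in DKO oocytes, by 2.35-fold to 5.56-fold, and none of the 4 factors and regulators changed at the test's threshold. Calls were made with edgeR's quasi-likelihood test at an adjusted p under 0.05 over all 14845 genes tested. In that comparison 17.3% of tested genes were called higher in DKO and 7.41% lower (2567 and 1100 genes, or 70.0% of calls higher). With library totals alone the split was 2905 and 596 (83.0% higher), and lower calls numbered 434 to 516 in the fits that left out 1 of SKO replicates 1, 2 or 3. Of the 10 genes, 6 (60%) were higher and 0 lower, with the same counts by DESeq2 and at an unadjusted p under 0.05. The 10 genes were chosen with earlier results of these data known. The shares and medians set beside those of all genes therefore only describe them. The median log2 fold change of the 10 genes was 1.41, beside 0.04 for all tested genes. Levels differed too, and their part in the calls was not tested. The 6 targets lay between 2.17 and 20.6 CPM in SKO. Of 6981 genes at 1 to 30 CPM in SKO that passed the expression filter on SKO libraries alone, 16.6% were called higher and 4.28% lower. The 4 others lay between 51.4 and 5061 CPM, where 4.7% of 5250 genes at 30 CPM or more were called higher and 19.9% in either direction. All 10 genes passed the filter on the SKO libraries alone, so none entered the test only through a higher level in DKO. In pooled oocytes a lower count per library can mean less RNA in each oocyte or fewer oocytes that hold it, and these cannot be told apart.

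**Figure D1:**
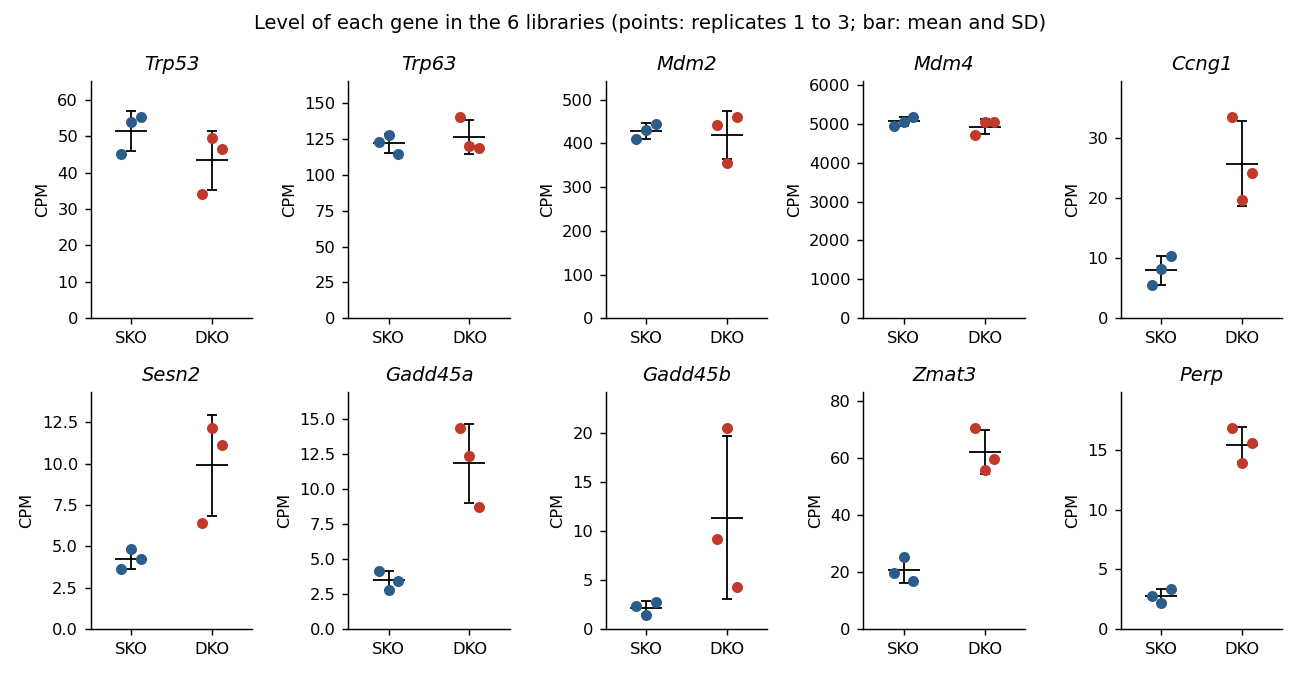
Level in CPM (linear axis from 0, own scale per panel) of the 10 genes in each SKO and DKO library, with points for replicates 1 to 3 and a bar for the mean and SD. The 6 target genes from Ccng1 to Perp show DKO points above all SKO points, while the points of Trp53, Trp63, Mdm2 and Mdm4 overlap.

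Trp53 (Entrez 22059, chromosome 11, 69580348 to 69591873, GRCm38) was moderately expressed. It measured 45.0, 53.9 and 55.2 CPM in SKO replicates 1 to 3 and 34.2, 49.5 and 46.3 CPM in DKO replicates 1 to 3. The groups overlapped, with DKO replicate 1 below all other libraries. The log2 fold change was -0.24 (SE 0.20, 95% interval -0.70 to 0.21, edgeR adjusted p = 0.421). The annotation holds a processed copy, Trp53-ps on chromosome 17, so the level of Trp53 is uncertain as far as reads of the copies were split.

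Trp63 (Entrez 22061, chromosome 16, 25683763 to 25892088) measured 123, 128.2 and 115 CPM in SKO and 140.3, 119.9 and 119 CPM in DKO. All 6 libraries lay close together. The log2 fold change was 0.05 (SE 0.16, 95% interval -0.30 to 0.40, edgeR adjusted p = 0.843), so the interval reached from 0.81-fold to 1.32-fold. Counts per gene do not separate the full-length form of Trp63, with its activation domain, from the shorter form of epithelial stem cells.

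Mdm2 (Entrez 17246, chromosome 10, 117688875 to 117710758), which p53 itself also switches on in a feedback loop, did not pass the test. It measured 409, 430 and 446 CPM in SKO and 442, 356 and 460 CPM in DKO, with a log2 fold change of -0.03 (SE 0.16, 95% interval -0.38 to 0.32, edgeR adjusted p = 0.912). The DKO libraries spanned the whole SKO range. Mdm4 (Entrez 17248, chromosome 1, 132986105 to 133030587) was the most abundant of the 10 genes. It measured 4954, 5059 and 5170 CPM in SKO and 4700, 5045 and 5047 CPM in DKO (log2 fold change -0.04, SE 0.14, 95% interval -0.35 to 0.27, edgeR adjusted p = 0.873). A pseudogene, Mdm4-ps, is annotated on chromosome X, so the level of Mdm4 is uncertain as far as reads of that copy were split. Mdm4 also shares 3855 bases with the lncRNA gene Gm41953 and 677 bases with the pseudogene Gm29257. Neither is among the counted genes. The near-zero values of Mdm2 and Mdm4 turned positive under other scalings, and with library totals alone Trp63, Mdm2 and Mdm4 were at 0.22, 0.13 and 0.12, where the median of all genes moved from 0.04 to 0.20.

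Per kilobase of gene length, the order of levels in SKO oocytes was Mdm4 at 688 ± 14.7 CPM per kb, Mdm2 at 136 ± 5.76, Trp53 at 21.8 ± 2.35 and Trp63 at 14.4 ± 0.79 (SD, n = 3). The first 4 places were separated by more than the spread in SKO. The targets followed between 2.83 ± 0.55 for Gadd45a and 1.46 ± 0.31 for Perp, each within the spread of its neighbour in the order. In DKO oocytes Mdm4 and Mdm2 stood at 670 ± 27.1 and 133 ± 17.6 CPM per kb. Trp53 at 18.4 ± 3.42 and Trp63 at 14.9 ± 1.417 CPM per kb came closer there, and in DKO replicate 1 Trp63 was above Trp53. The targets reached 9.65 ± 2.33 CPM per kb for Gadd45a, 8.96 ± 6.58 for Gadd45b, 8.12 ± 0.78 for Perp, 7.97 ± 0.98 for Zmat3, 7.37 ± 2.02 for Ccng1 and 3.73 ± 1.15 for Sesn2. All 6 means stayed below that of Trp63, although Gadd45b in DKO replicate 2 reached 16.2 CPM per kb.

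**Figure D2:**
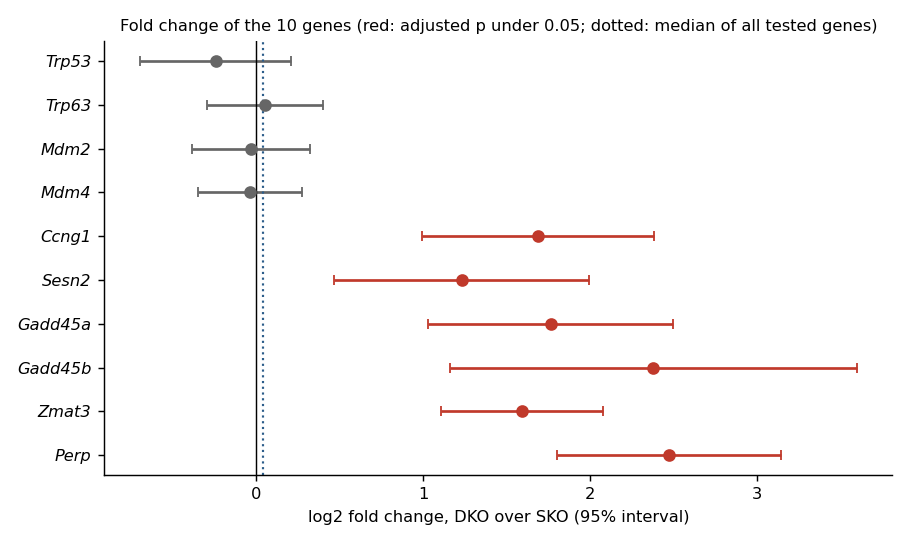
Log2 fold change of DKO over SKO with its 95% interval for each of the 10 genes, in red where the edgeR adjusted p was under 0.05. The intervals of the 4 factors and regulators include 0 and those of the 6 target genes lie above it, from 1.23 for Sesn2 to 2.47 for Perp.

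Perp (Entrez 64058, chromosome 10, 18845071 to 18857073), a membrane protein of desmosomes that p53 switches on in apoptosis and p63 in stratified epithelium, had the largest fold of the 10 genes. It measured 2.74, 2.21 and 3.37 CPM in SKO and 16.9, 13.9 and 15.6 CPM in DKO. The lowest DKO library was well above the highest SKO library. The log2 fold change was 2.47 (SE 0.30, 95% interval 1.80 to 3.14, edgeR adjusted p = 0.000296), or 5.56-fold. Groups without overlap and higher in DKO were found in 24.7% of all tested genes and in all 6 targets.

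Zmat3 (Entrez 22401, chromosome 3, 32334792 to 32365665), a zinc finger protein that binds RNA and acts in p53-dependent growth suppression, was the most abundant target by CPM. It measured 19.8, 25.2 and 16.7 CPM in SKO and 70.6, 55.9 and 59.7 CPM in DKO, a log2 fold change of 1.59 (SE 0.22, 95% interval 1.10 to 2.08, edgeR adjusted p = 0.000614). Its spread within each genotype was small beside the difference. Zmat3 shares 177 bases with the lncRNA gene 4930429B21Rik, which held at most 23 counts in a library where Zmat3 held 407 to 1537.

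Ccng1 (Entrez 12450, chromosome 11, 40748552 to 40755309) encodes cyclin G1, a p53 target that recruits a phosphatase to Mdm2. It measured 5.47, 8.20 and 10.3 CPM in SKO and 33.4, 19.6 and 24.1 CPM in DKO. The DKO libraries differed among themselves by 1.71-fold and the SKO libraries by 1.88-fold, with a gap between the groups. The log2 fold change was 1.69 (SE 0.31, 95% interval 0.99 to 2.38, edgeR adjusted p = 0.00339).

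Gadd45a and Gadd45b encode small stress sensors that bind PCNA, the Cdk1 complex and the p38 pathway kinase Map3k4. Gadd45a is the classical p53 target of the pair, and Gadd45b is better known for its induction by NF-kB and TGF-beta signalling. Gadd45a (Entrez 13197, chromosome 6, 67035096 to 67037407) measured 4.15, 2.81 and 3.45 CPM in SKO and 14.4, 12.4 and 8.74 CPM in DKO (log2 fold change 1.76, SE 0.33, 95% interval 1.03 to 2.496, edgeR adjusted p = 0.00352). It shares 809 bases with the lncRNA gene E230016M11Rik, and the deposited counts do not separate reads of the shared part. That gene gained 1.16 CPM in DKO and Gadd45a gained 8.35 CPM. Gadd45b (Entrez 17873, chromosome 10, 80930091 to 80932204) measured 2.37, 1.43 and 2.71 CPM in SKO and 9.23, 20.5 and 4.27 CPM in DKO. It was the most uneven of the 10 genes, with a 4.81-fold range over the DKO libraries. Its log2 fold change was 2.38 (SE 0.55, 95% interval 1.16 to 3.60, edgeR adjusted p = 0.0107). Without DKO replicate 2 the value was 1.62 (edgeR adjusted p = 0.0459).

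Sesn2 (Entrez 230784, chromosome 4, 132492804 to 132510456) encodes sestrin 2, a leucine sensor that restrains mTORC1 and is switched on by p53 and by nutrient stress. It measured 3.62, 4.84 and 4.23 CPM in SKO and 6.44, 12.2 and 11.1 CPM in DKO. DKO replicate 1 was the lowest of its group and closest to the SKO libraries. The log2 fold change was 1.23 (SE 0.34, 95% interval 0.47 to 1.99, edgeR adjusted p = 0.0257), the smallest of the 6. The call was lost without DKO replicate 2 (adjusted p = 0.076) and without SKO replicates 1, 2 or 3 (adjusted p = 0.0992, 0.0629 and 0.0797, edgeR), while the value stayed between 1.05 and 1.46 in the 6 fits that left out a library.

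The other 5 target genes were called in all 13 alternatives run, with edgeR or DESeq2 adjusted p-values of at most 0.0459. DKO replicate 1 was the highest DKO library for Perp, Zmat3, Ccng1, Gadd45a and Trp63, and the lowest for Sesn2, Trp53 and Mdm4. DKO replicate 2 was the highest for Sesn2, Gadd45b and Trp53. So no single DKO library was highest for every target.

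**Figure D3:**
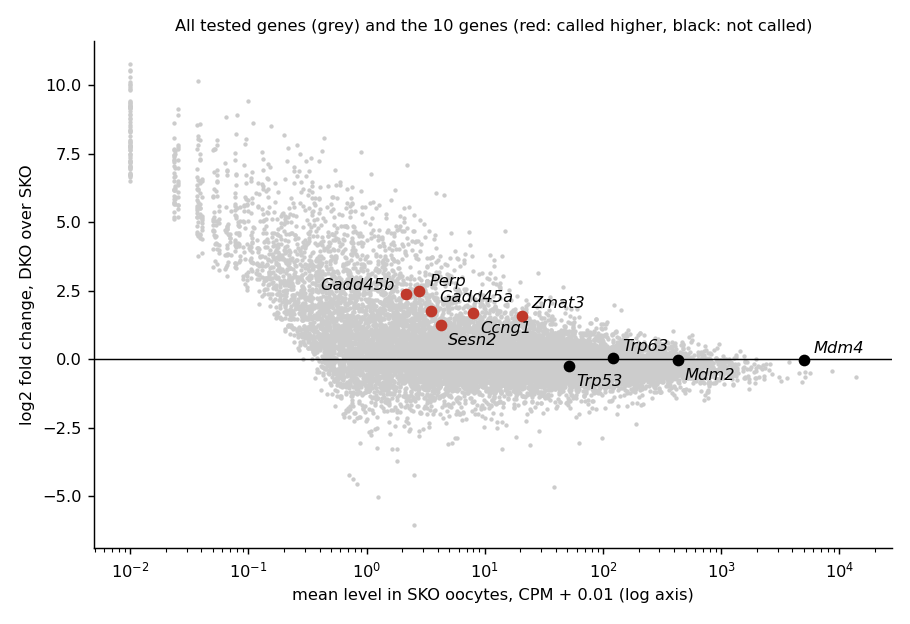
Log2 fold change of DKO over SKO against the mean SKO level (CPM + 0.01, log axis) for all 14845 tested genes in grey, with the 10 genes marked. The 6 called genes lie at 2.17 to 20.6 CPM, among many grey genes with larger rises at lower levels, and the 4 others lie near 0 from 51.4 to 5061 CPM.

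Ratios of counts within a library do not depend on how libraries were scaled. Of 5 such ratios, each corrected for gene length, Mdm2 over Mdm4 was 0.198 in DKO and 0.198 in SKO (two-sided exact permutation p = 1). Ccng1 over Mdm2 was 0.0543 in DKO and 0.0163 in SKO, and Zmat3 over Mdm2 was 0.0599 and 0.0192. The libraries of the genotypes did not overlap in either ratio (two-sided exact permutation p = 0.1, the smallest that 3 against 3 can give, and 0.167 adjusted over the 5). Trp63 over Trp53 was 0.819 in DKO and 0.663 in SKO, with overlapping libraries (exact permutation p = 0.4, 0.5 adjusted).

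The promoters of the genes that moved together, and that of Mdm2 for contrast, were read for the decamer that p53 and p63 bind in pairs as their response element. Promoter entries were matched for 7 of the 10 genes, all but Trp63, Zmat3 and Perp (RefSeq, GRCm38.p6), with 8 windows of 250 bases before a transcription start. The p53 half-site consensus, searched on both strands, was present for 4 of these 7 genes and in 7.13% of 32851 promoter windows of the same length. By call it was present for 2 of the 4 target genes with an entry, Ccng1 and Gadd45a, and for 2 of the 3 genes that were not called, Trp53 and Mdm2. A match is a stretch of letters and not evidence of binding. The stretches below run 5′ to 3′ on the strand of the gene, exclude annotated UTRs and show the decamer in capitals.
Ccng1: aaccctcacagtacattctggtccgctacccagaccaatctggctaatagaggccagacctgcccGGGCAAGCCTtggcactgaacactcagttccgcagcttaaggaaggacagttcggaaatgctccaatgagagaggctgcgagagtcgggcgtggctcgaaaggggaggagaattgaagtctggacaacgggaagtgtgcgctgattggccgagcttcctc
Gadd45a: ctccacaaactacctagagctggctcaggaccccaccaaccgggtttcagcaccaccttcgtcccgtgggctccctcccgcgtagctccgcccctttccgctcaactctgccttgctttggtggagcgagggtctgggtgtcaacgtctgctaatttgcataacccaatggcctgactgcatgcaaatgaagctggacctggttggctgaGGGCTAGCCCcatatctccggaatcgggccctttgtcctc
Mdm2: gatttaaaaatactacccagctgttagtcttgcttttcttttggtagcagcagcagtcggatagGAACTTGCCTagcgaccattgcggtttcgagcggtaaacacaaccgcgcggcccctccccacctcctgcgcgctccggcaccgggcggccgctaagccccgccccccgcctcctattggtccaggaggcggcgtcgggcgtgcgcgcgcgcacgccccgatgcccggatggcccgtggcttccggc
These stretches lie on the minus strand of GRCm38 at chr11:40755312-40755536 for Ccng1, chr6:67037408-67037657 for Gadd45a and chr10:117710759-117711008 for Mdm2. The decamers span the bases 176 to 185 before the start of Ccng1, 31 to 40 before that of Gadd45a and 177 to 186 before that of Mdm2. Introns of Ccng1, Gadd45a and Mdm2 lie outside these windows and were not searched. The p53-responsive promoter of Mdm2 is known to lie in its first intron.

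The windows also differed in CpG content, a feature of promoters that Polycomb complexes occupy. Whole windows held 29 CpG dinucleotides for Mdm2, 22 for Gadd45b, 18 for Sesn2, 11 each for Gadd45a and Ccng1, 9 for Trp53, and 5 and 4 for the windows of Mdm4. The median over all promoter windows was 6, with quartiles of 2 and 16. The called genes Sesn2 and Gadd45b and the uncalled Mdm2 were above the upper quartile. The called Gadd45a and Ccng1 and the uncalled Trp53 lay between the median and the upper quartile, and the uncalled Mdm4 was below the median. The called Perp and Zmat3 and the uncalled Trp63 had no entry. A relation of CpG content to fold change was not tested.

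Paralogs of the 10 genes did not all move together. Trp73, the remaining member of the p53 family, measured 26.6 ± 2.04 CPM in SKO and 21.7 ± 11.5 CPM in DKO (log2 fold change -0.29, SE 0.38, edgeR adjusted p = 0.61). Of the sestrins, Sesn1 rose to 11.7 ± 5.16 CPM in DKO against 2.84 ± 0.54 CPM in SKO (log2 fold change 2.03, SE 0.40, edgeR adjusted p = 0.00489). Sesn3, which in other cells is driven by FoxO factors, measured 20.2 ± 2.69 CPM in SKO and 23.5 ± 3.92 CPM in DKO (log2 fold change 0.21, 95% interval -0.30 to 0.72, edgeR adjusted p = 0.539). Cyclin G2, encoded by Ccng2, went the other way from Ccng1 in value, with 21.0 ± 1.52 CPM in SKO and 13.3 ± 5.47 CPM in DKO, but did not pass the test (log2 fold change -0.66, SE 0.32, edgeR adjusted p = 0.16). The ratio of Ccng1 to Ccng2 per length went from 0.271 in SKO to 1.47 in DKO, with no overlap between the libraries of the genotypes (two-sided exact permutation p = 0.1, 0.167 adjusted). Gadd45g, the remaining Gadd45 gene, held 1 count over the SKO libraries and 109 over the DKO libraries, a ratio of 119.6 (exact 95% counting interval 21.0 to 4767). That interval leaves out the variation between libraries. With that variation the log2 fold change was 6.44 (SE 0.96, 95% interval 4.31 to 8.57, edgeR adjusted p = 0.000967). Gadd45g entered the test only through its DKO level. Its level in DKO, 1.72 ± 0.38 CPM, was still below those of Gadd45a and Gadd45b.

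**Figure D4:**
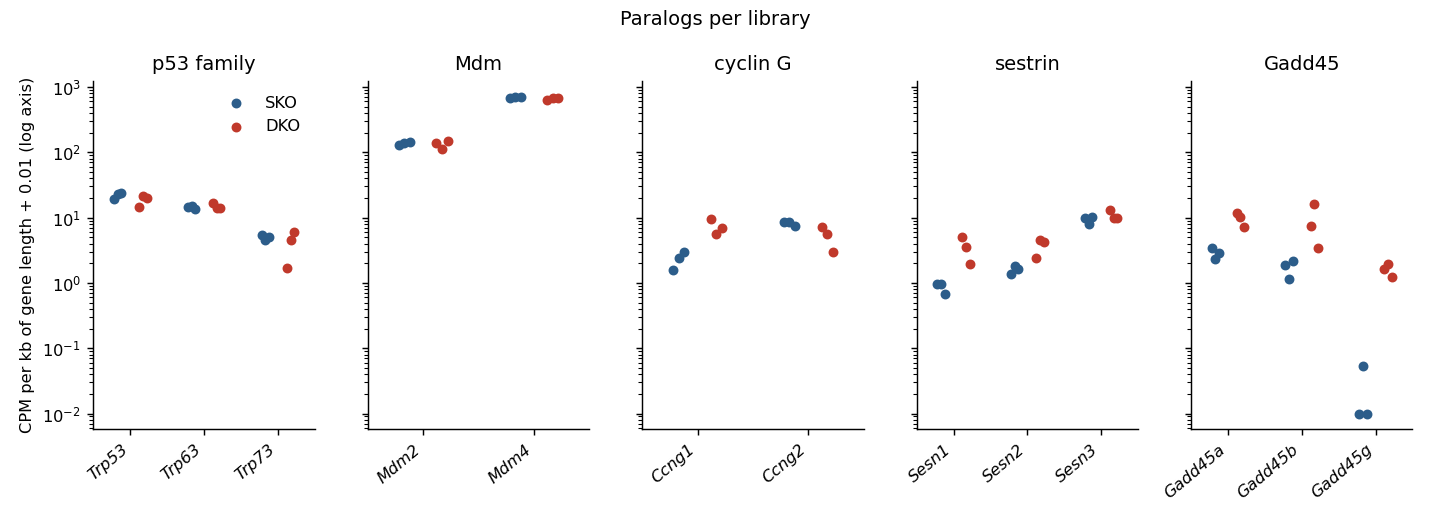
Level per kb of gene length (CPM per kb + 0.01, shared log axis) of the p53 family, Mdm, cyclin G, sestrin and Gadd45 genes, with 1 point per library. DKO points lie above SKO points for Ccng1, Sesn1, Sesn2 and all 3 Gadd45 genes, and below them for Ccng2, which was not called. The groups overlap for the p53 family, Mdm2, Mdm4 and Sesn3.

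The wider pathway was read from 7 lists, also chosen with earlier results of these data known. They held 107 tested genes, counted once each. Of these, 21 were called higher and 7 lower, or 19.6% higher beside 17.3% of all tested genes, with a median log2 fold change of 0.04, the same as for all genes. So the lists as a whole lay near the background, and the calls were gathered in some of them. The 7 lower calls became 4 with library totals alone, 13 without DKO replicate 3, and 3 without SKO replicate 1, 2 or 3.

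Target genes of cell cycle and growth arrest had the highest share of calls in the higher direction among the 7 lists: 7 of 14 tested were higher and 0 lower, with a median of 1.04. Of the 12 that passed the filter on SKO alone, 5 were higher, beside 1524 higher and 1099 lower of all 12731 genes that passed it so. Plk2 and Plk3, stress-responsive polo-like kinases, rose from 1.415 ± 0.38 to 14.0 ± 5.83 CPM and from 4.79 ± 1.24 to 20.3 ± 7.98 CPM (log2 fold changes 3.30 and 2.08, edgeR adjusted p = 0.000427 and 0.00256). The antiproliferative gene Btg2 rose from 15.4 ± 1.54 to 42.5 ± 14.2 CPM (log2 fold change 1.46, edgeR adjusted p = 0.00299). Cdkn1a, the p21 inhibitor of cyclin-dependent kinases, rose by 1.14 on the log2 scale (edgeR adjusted p = 0.0257), and its adjusted p reached 0.109 over the alternatives, past the threshold. The abundant Trp53inp1 and Gtse1 were not called, at 152 and 96.2 CPM in DKO and 108 and 122 CPM in SKO. Trp53inp1, at a log2 fold change of 0.48 (edgeR adjusted p = 0.0751), was called higher with library totals alone (0.66, adjusted p = 0.0351) and without DKO replicate 3 (0.61, adjusted p = 0.0174).

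Target genes of cell death gave 4 higher and 0 lower of 11 tested, with a median of 0.29. Of the 8 that passed the filter on SKO alone, 1 was higher, Ei24, so the share in this list rests largely on genes near silence in SKO. Pmaip1, which encodes the pro-apoptotic BH3 protein Noxa, and the BH3 protein gene Bid rose to 26.5 ± 11.5 and 8.28 ± 2.73 CPM from 0.25 and 0.322 CPM (log2 fold changes 6.68 and 4.68, edgeR adjusted p = 3.29e-05 and 0.00208). The death receptor gene Fas reached 1.32 CPM from 0.164 CPM, and Ei24, an endoplasmic reticulum protein gene, reached 47.5 CPM from 29.2 CPM. Their adjusted p-values of 0.014 and 0.0289 went up to 0.0683 and 0.137 over the alternatives (edgeR). Bbc3, which encodes Puma, a death effector of p63 in oocytes, was below the filter, with at most 0.114 CPM in any library. Bax, a pore-forming effector, measured 1.424 to 2.64 CPM in DKO and 2.05 to 2.84 CPM in SKO (edgeR adjusted p = 0.746). Some log2 fold changes depended on single SKO libraries: Pmaip1 was 7.58 and Fas 3.54 without SKO replicate 1, and Bid was 5.62 and 4.08 without SKO replicates 2 and 3.

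Target genes of DNA repair and metabolism gave no call: 0 higher and 0 lower of 13 tested by edgeR, with a median of 0.03. At an unadjusted p under 0.05 edgeR gave 1 higher and 0 lower, and DESeq2 gave 0 calls. Rrm2b, a ribonucleotide reductase subunit, was at 353 ± 4.92 CPM in SKO and 276 ± 43.7 CPM in DKO (log2 fold change -0.35, edgeR adjusted p = 0.147). After a correction for GC content and length, added after seeing the data, Rrm2b was called lower at -0.58 (edgeR adjusted p = 0.0156). The mitotic gene Ckap2 measured 148 ± 18.5 and 169 ± 12.4 CPM. The difference between this list and the arrest list was not tested.

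Upstream, the p53 family and the kinases and cofactors that act on p53 and p63 gave 2 higher and 2 lower of 20 tested, with a median of -0.17. Of the 19 that passed the filter on SKO alone, 1 was higher and 2 were lower. Trp53bp1, a DNA break response factor first found by its binding to p53, fell to 133 ± 13.1 CPM in DKO against 274 ± 19.6 CPM in SKO (log2 fold change -1.04, SE 0.16, edgeR adjusted p = 0.0011). Trp53bp1 overlaps Tubgcp4, which was 8.57 CPM lower in DKO, and Map1a, which was 8.13 CPM higher. Csnk1e, a casein kinase 1 gene, fell by 0.55 and the p38 kinase gene Mapk14 rose by 0.68 on the log2 scale, with edgeR adjusted p-values of 0.0329 and 0.0337 that went up to 0.141 and 0.16 over the alternatives. Cdkn2a, whose Arf product blocks Mdm2, rose from 0.113 to 1.30 CPM (edgeR adjusted p = 0.0116, up to 0.0559), with 8 counts over the SKO libraries, and entered the test only through its DKO level. Chek2, the kinase upstream of p63 in oocytes, measured 2.44 to 2.90 CPM in DKO and 3.70 to 4.24 CPM in SKO (log2 fold change -0.57, edgeR adjusted p = 0.284). Chek1 and the acetyltransferase gene Crebbp, the most abundant uncalled genes, measured 552 ± 26.5 and 693 ± 325 CPM in DKO and 555 ± 37.7 and 845 ± 24.5 CPM in SKO. Genes of p53 turnover and other brakes gave 0 calls in 15 by edgeR, 1 higher and 0 lower at an unadjusted p under 0.05, and 0 calls by DESeq2. Their median was -0.09, and the abundant ubiquitin ligase genes Huwe1 and Ube4b had log2 fold changes of -0.15 and -0.07. Without DKO replicate 3, Huwe1 was called lower at -0.44 (edgeR adjusted p = 0.0246) and Crebbp at -0.74 against -0.29 with all libraries (edgeR adjusted p = 0.00689).

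Genes that p63 drives in stratified epithelium moved in both directions, with 6 higher and 3 lower of 15 tested and a median of 0.42. Of the 10 that passed the filter on SKO alone, 2 were higher and 3 lower. The epidermal keratin genes Krt5 and Krt14 were below the filter, Krt14 with 0 CPM in all libraries. The integrin gene Itga3 rose from 0.754 ± 0.43 to 14.2 ± 3.85 CPM and the epidermal factor Grhl3 from 0.583 to 10.2 ± 3.27 CPM (log2 fold changes 4.23 and 4.12, edgeR adjusted p = 0.00014 and 0.00158). Unlike Itga3, Grhl3 and Col17a1 did not pass the filter on SKO alone and entered the test only through their DKO level. Col17a1, a hemidesmosome collagen, reached 3.07 CPM from 0.19 CPM. Itgb4, its hemidesmosome partner, fell from 14.0 ± 6.02 to 1.40 ± 0.91 CPM (log2 fold change -3.29, edgeR adjusted p = 0.00145). Without DKO replicate 3 Itgb4 was -4.00, without SKO replicate 3 Grhl3 was 4.91, and without SKO replicate 2 Col17a1 was 4.83. The remaining lower calls were the Notch ligand genes Jag1 and Jag2. Jag1 fell from 918 ± 52.7 to 550 ± 57.7 CPM and Jag2 from 112 ± 7.45 to 67.1 ± 22.1 CPM. Both log2 fold changes were -0.74 (edgeR adjusted p = 0.00613 and 0.0444, up to 0.0421 and 0.132 over the alternatives). The abundant Itga6 and Dst were not called, at 420 ± 99.6 and 317 ± 114 CPM in DKO and 448 ± 10.5 and 386 ± 10.6 CPM in SKO. Without DKO replicate 3, Dst was called lower at -0.62 against -0.28 with all libraries (edgeR adjusted p = 0.00888).

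Partners of the Gadd45 and sestrin proteins gave 3 higher and 2 lower of 21 tested, with a median of 0.10. Nprl2 and Sec13, subunits of the GATOR complexes through which sestrins act on mTORC1, fell by 1.002 and 0.65 on the log2 scale (edgeR adjusted p = 0.0258 and 0.0177). Sqstm1, an autophagy receptor that binds sestrins, rose from 21.4 ± 0.90 to 33.9 ± 2.47 CPM (edgeR adjusted p = 0.0331). None of these 3 calls held throughout: their largest adjusted p over the alternatives was 0.101, 0.0853 and 0.138. The kinase gene Mapk8 was at 394 ± 18.2 CPM in SKO and 479 ± 101 CPM in DKO, and Ccnb1 at 194 ± 10.3 and 192 ± 43.3 CPM. Nprl2 overlaps Cyb561d2, which was 3.99 CPM lower in DKO where Nprl2 was 17.4 CPM lower.

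**Figure D5:**
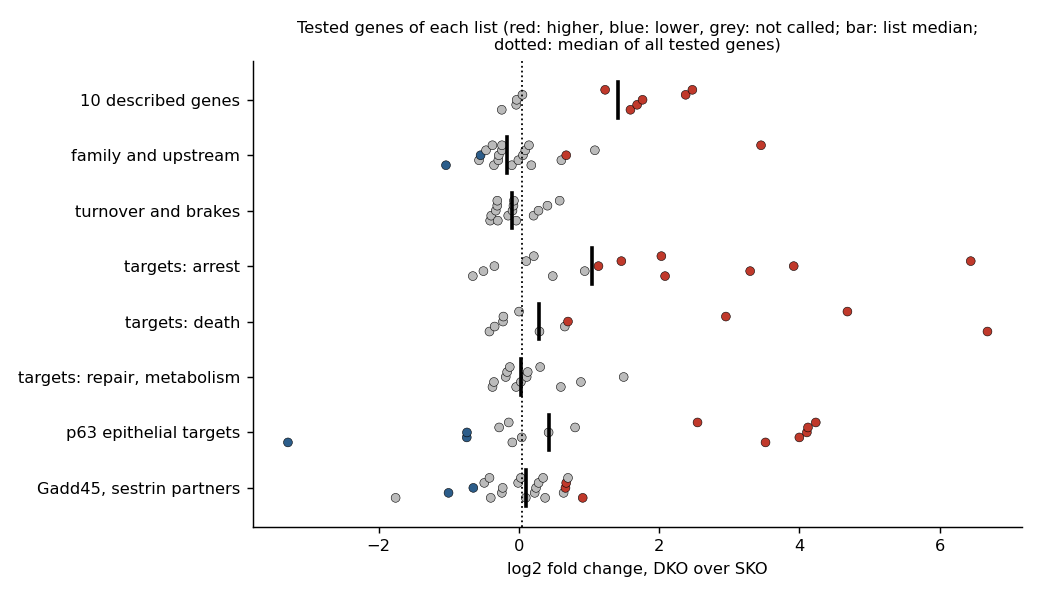
Log2 fold change of DKO over SKO for the tested genes of each list, in red where called higher, in blue where called lower and in grey otherwise, with the list median as a bar and the median of all tested genes as a dotted line. The 10 described genes and the arrest targets have medians of 1.41 and 1.04, and the other lists have medians between -0.17 and 0.42.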

How the data were processed

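Each library was made from 15 GV oocytes of 1 mouse, and its RNA was amplified (Ovation) ahead of sequencing, per the labels' protocols. Reads are therefore not independent molecules, and counting intervals cover counting error only. The authors deposited raw read counts per Entrez gene and a length for each gene. The submitters' processing notes list STAR 2.5.0a with GRCm38 and mm10. The counting tool, annotation, strand setting and treatment of multiple alignments were not given in the sources used here.

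Entrez identifiers were matched to RefSeq symbols of GRCm38.p6 (24387 of 24421). Genes passing filterByExpr (minimum count 10, minimum total 15) were scaled with TMM and tested with edgeR 4.0.16 in R 4.3.3 (quasi-likelihood, two-sided, Benjamini-Hochberg over 14845 genes), and the code was tested on simulated data. DESeq2 1.42.0 was an alternative. CPM use TMM-scaled sizes, and standard errors come from the F statistic.

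The 10 genes and the 7 pathway lists were chosen with earlier results of these data known. Named from each list were up to 4 called genes with the smallest adjusted p and the 2 most abundant uncalled genes, and from each marker list the 3 most abundant, except that 1 blood marker and the sum of its list are not reported here. The paralogs, and Cdkn1a, Krt8, Krt19, Pdgfra, Dcn, Col1a1, Hba-a1, Hbb-bs, Chek2, Bbc3, Bax, Krt5, Krt14, Amh and Foxl2, were named for their roles or their values after values were seen. So were Inhba, Has2, Cyp19a1, Jag1, Jag2, Lyz2, Cd3e, Csf1r, Ptprc and Adgre1.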

Additional observations from a re-analysis of the deposited data

How the results depend on the processing

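The 6 target genes kept their direction in all 13 alternatives, and only the call of Sesn2 was lost, in 4 of the 6 fits that left out a library (log2 fold change 1.05 to 1.46). Values near 0 turned sign: with library totals alone Mdm2 was 0.13 and Mdm4 0.12, with upper quartile scaling 0.014 and 0.0052, and Trp63 was -0.12 after a correction for GC content and length, an alternative added after seeing the data. With a library left out Mdm2 ranged from -0.11 to 0.070, Trp63 from -0.032 to 0.085 and Mdm4 from -0.072 to -0.0068. Among uncalled pathway genes, library totals alone gave 0.15 for Chek1, 0.078 for Ube4b, 0.085 for Itga6 and 0.17 for Ccnb1, upper quartile scaling 0.037 for Chek1 and 0.038 for Ccnb1, and the stricter filter 0.013 for both. Bnip3l was -0.0085 with DESeq2, -0.037 with no filter on low counts, -0.14 after the GC and length correction and -0.000545 with the replicate block. With a library left out Chek1 ranged from -0.081 to 0.018, Ube4b from -0.21 to 0.083, Bnip3l from -0.12 to 0.079, Itga6 from -0.21 to 0.084, Ccnb1 from -0.20 to 0.11 and Trp73 from -0.67 (without DKO replicate 3) to 0.072 (without DKO replicate 1). Over all genes, 2567 higher and 1100 lower calls (70.0% higher) became 2905 and 596 (83.0%) with library totals alone, 2883 and 1594 with DESeq2, 2487 and 1629 after the GC and length correction, and 1952 to 2704 and 434 to 1501 with a library left out. Lower calls were 516, 464 and 434 without SKO replicates 1, 2 and 3. The 7 lower calls of the pathway lists became 4 with library totals alone, 13 after the GC and length correction and 3 to 13 with a library left out. The cause was not tested. Same-numbered libraries correlated at 0.182, 0.0879 and 0.0613 in their deviations. Libraries with different numbers were not compared in this way, so whether the numbers pair the libraries was not tested. The replicate block gave 2651 higher and 1364 lower calls and changed no call of the 10 genes, with Sesn2 at 1.19 and Gadd45b at 2.12. With 3 libraries a genotype and 31 to 105 counts per SKO library for Gadd45a, Gadd45b, Perp and Sesn2, the size of those folds is known only within the intervals given.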
